A study of Mus musculus with 12 samples.

Results

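The genes described here encode the proteins of the cytosolic and the mitochondrial ribosome. They were chosen by symbol alone: every gene named through a probe's accession whose symbol is Rpl, Rps, Mrpl or Mrps followed by a number, with an optional letter and number after it. This gave 157 genes of the 20018 named on the array, 79 cytosolic (48 Rpl of the large subunit and 31 Rps of the small subunit) and 78 mitochondrial (49 Mrpl and 29 Mrps). They are read by 261 probes, and for each gene the brightest probe was used. In all, 154 genes, 77 of each family, were bright enough to be tested. The cytosolic paralogues Rpl39l and Rpl3l and the mitochondrial Mrpl21 were not, and have no test below.

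The study measured RNA from splenic B cells of mice on 12 single-colour arrays, 3 in each of 4 groups. All mice carried B1-8hi, a rearranged heavy chain variable gene giving high affinity for the hapten NP, and Sub1fl/fl, alleles of Sub1 flanked by loxP sites. Sub1 encodes the chromatin protein PC4. The controls were B1-8hi:Sub1fl/fl without Cre, and the knockouts were B1-8hi:Sub1fl/fl-Mb1-Cre, in which Cre is made in the B lineage from the Cd79a (Mb1) locus. Mb1-Cre is an insertion into Cd79a, so loss of Sub1, presence of Cre and a changed Cd79a allele cannot be told apart here. Resting cells had no differentiation stimulus. Stimulated cells had 72 h of IL-5 at 1.5 ng/mL, IL-4 at 5 ng/mL, IL-2 at 100 U/mL, NP-ficoll at 0.01 ng/mL and CD40 ligand at 0.2 ng/mL. The labels give no age or sex and do not say that replicates are separate mice, so each p-value reflects how far these arrays vary and no more, and that variation may be technical.

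The cytosolic ribosome translates nuclear-encoded messages. Its protein genes are among the most highly expressed in any cell, and their mRNAs typically begin with a cytosine followed by pyrimidines, the 5′ terminal oligopyrimidine (TOP) tract, through which mTOR signalling and the RNA-binding protein LARP1 control how much of each message is translated. The mitochondrial ribosome is a separate machine, built from nuclear-encoded proteins that are imported into mitochondria. It translates the few mitochondrial messages, all of which code for subunits of the oxidative phosphorylation complexes. B cells enlarge and divide after activation, and both kinds of translation are called upon as they do.

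Start regions of 7 genes whose levels are described below are shown, because they illustrate the motifs counted in the next paragraph and, in Mrps11, a stretch without any. The sequences are from RefSeq (build GRCm38.p6), 60 bases before to 20 bases from the annotated start on, 5′ to 3′ on the gene's strand. Capitals mark a match to a motif searched on both strands or, at the annotated start, a C followed by at least 4 pyrimidines. No capitalised matches overlap.
Rpl28, chr7:4792905-4792984, + strand: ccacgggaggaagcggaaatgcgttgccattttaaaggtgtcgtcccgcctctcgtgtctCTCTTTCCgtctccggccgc
Rps6, chr4:86857348-86857427, - strand: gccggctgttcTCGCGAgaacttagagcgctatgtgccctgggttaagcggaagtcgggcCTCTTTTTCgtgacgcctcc
Rps27l, chr9:66946026-66946105, + strand: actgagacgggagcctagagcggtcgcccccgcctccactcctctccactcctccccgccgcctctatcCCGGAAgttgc
Mrpl37, chr4:107066847-107066926, - strand: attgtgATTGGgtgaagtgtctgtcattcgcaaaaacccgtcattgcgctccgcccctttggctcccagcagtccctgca
Mrpl57, chr14:57826179-57826258, + strand: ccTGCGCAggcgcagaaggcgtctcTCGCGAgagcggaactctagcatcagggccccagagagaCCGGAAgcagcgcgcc
Mrpl18, chr17:12916072-12916151, - strand: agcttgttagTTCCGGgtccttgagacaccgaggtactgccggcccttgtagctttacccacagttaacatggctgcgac
Mrps11, chr7:78783071-78783150, + strand: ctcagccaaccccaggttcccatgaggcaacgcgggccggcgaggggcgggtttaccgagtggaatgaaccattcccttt
In Rpl28 and Rps6 the capitals at the annotated start are the pyrimidine run, and the earlier capitals in Rps6 are the palindrome TCGCGA. Mrpl57 holds that palindrome too, after TGCGCA, the half-site of NRF-1, and before CCGGAA, the core bound by ETS factors. Mrpl18 and Rps27l hold CCGGAA or its reverse complement, and Mrpl37 the reverse complement of CCAAT. The Mrps11 stretch holds none of these. Mrpl46 is annotated on the opposite strand there, its start 42 bases upstream, so these genes share this start region.

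The promoter table held 59 of the 79 cytosolic and 69 of the 78 mitochondrial genes, with a window of 300 bases each, 250 before the start and 50 from it on. A pyrimidine run beginning exactly at the annotated start stood in 11 of 59 cytosolic windows (18.6%), in 0 of 69 mitochondrial windows and in 2.49% of the 27025 windows of all genes. CCGGAA was found in 50.8% of cytosolic, 56.5% of mitochondrial and 15.2% of all windows. The NRF-1 half-site TGCGCA stood in 18.6%, 30.4% and 8.06%, and TCGCGA in 22%, 2.9% and 2.58%. ATGGCGG, the core bound by YY1, stood in 16.9%, 18.8% and 4.19%. CCAAT stood in 27.1%, 39.1% and 37.9%, and TATAAA in 8.47%, 5.8% and 14.2%. These counts are of letters, not of bound sites.

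Levels below are log2 intensities relative to the 75th percentile of the same array, and a difference is between group means on that scale, with its standard error. A gene is called where limma's Benjamini-Hochberg adjusted p over all 22981 features is under 0.05. Sub1 itself, the deleted gene, was read by its brightest probe at 8.19, 7.79 and 8.15 in the stimulated controls and at 6.72, 6.87 and 6.92 in the stimulated knockouts, a difference of -1.21 ± 0.19 (adjusted p = 0.0114). In resting cells the difference was -0.38 ± 0.19 (adjusted p = 0.268). The call in stimulated cells was lost under 8 of 28 alternative settings, including without the first or the second stimulated knockout and with the mean of the gene's probes. The call of Sub1 with stimulation in controls (2.01) was lost with that mean alone, and the difference was as low as 0.52 over the settings. Other Sub1 probes thus read differently from the brightest. Cd79a was lower by 1.10 in stimulated knockouts (adjusted p = 0.0343), a call lost under 16 of 28 settings, among them quantile normalization and leaving out any 1 of 9 arrays, and read -1.54 ± 0.24 in resting ones (adjusted p = 0.0948). Between 24.3% and 76.8% of spots were well above background on an array. Replicates 1 and 2 were on 1 slide and replicate 3 on another, each slide holding all 4 groups. All 8 markers of B cells, Cd79a among them, were tested, and their summed level lay between 9.02 and 10.08 on the 12 arrays. At rest it lay between 9.87 and 10.08 in controls and between 9.45 and 9.68 in knockouts. The median marker difference there was -0.54 beside -0.21 for all features. Of the markers, 0 of 8 were positive and 0 called, where 8696 of 22981 features were positive. After stimulation the genotypes overlapped in this level.

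Stimulation raised the mitochondrial ribosomal protein genes widely in control cells. Of 77 tested, 48 rose and 0 fell, where 14.7% of all features were called higher and 13.1% lower, and their median difference was 0.75 beside 0.04 for all features. Fewer cytosolic genes passed: 5 of 77 rose, 0 fell, and their median difference was 0.24. The mitochondrial median exceeded the cytosolic one by 0.51, by 0.29 without the first and by 0.77 without the third stimulated control. Both symbol groups of the mitochondrial family took part, with 29 of 48 Mrpl and 19 of 29 Mrps genes called, against 3 of 46 Rpl and 2 of 31 Rps genes. Resting and stimulated controls did not overlap, with the stimulated arrays higher, for 60 mitochondrial and 18 cytosolic genes, where 20.3% of all features were apart in that direction.

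The knockout cells gave the same order. There 33 mitochondrial genes rose and 0 fell, where 10.9% of all features were called higher and 5.2% lower, with a median difference of 0.59 beside 0.10 for all features. Of the cytosolic genes 5 rose and 0 fell, with a median of 0.25, and the mitochondrial median exceeded it by 0.34. By symbol, 22 of 48 Mrpl, 11 of 29 Mrps, 3 of 46 Rpl and 2 of 31 Rps genes were called. Resting and stimulated knockouts were apart in the upward direction for 62 mitochondrial and 26 cytosolic genes, where 21.8% of all features were. These counts depend on single arrays, and the share of all features called in those fits is not given here. Of the mitochondrial calls in knockouts, 12 were made without the first and 15 without the second resting knockout, and 11 and 18 without the first and the second stimulated knockout. Leaving out any 1 of these 4 arrays left 1 cytosolic call in knockouts, and leaving out any 1 resting control left 3. In controls 3 cytosolic calls were made without the first or the second resting control.

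**Figure D1:**
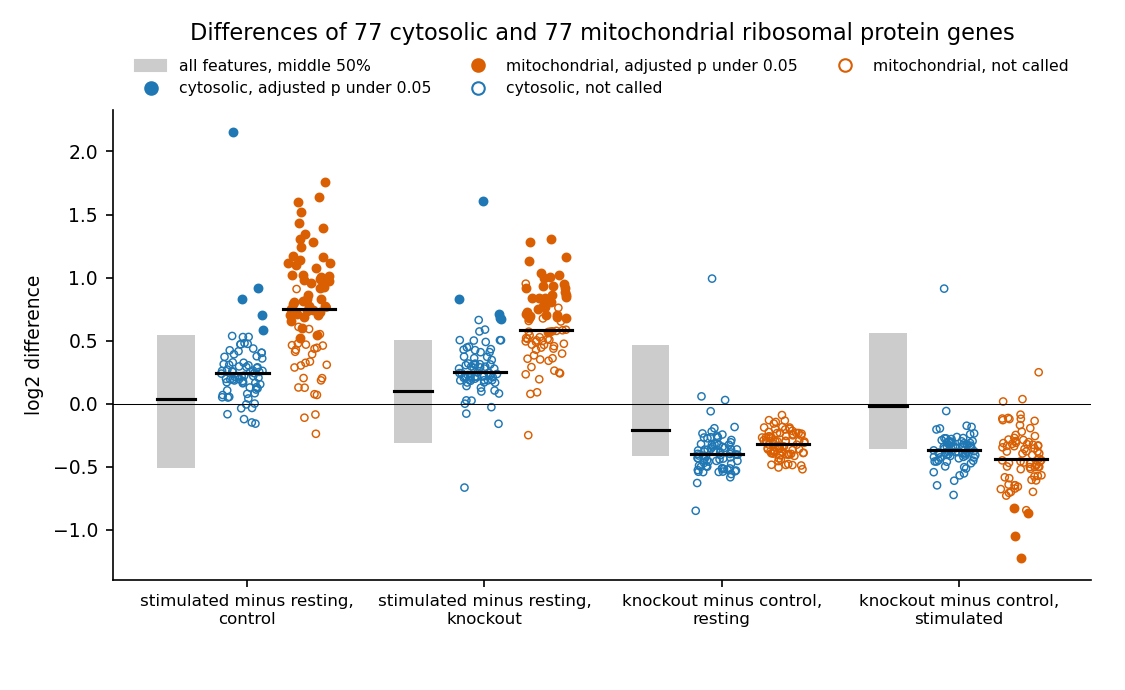
Log2 differences of the 77 cytosolic (blue) and 77 mitochondrial (orange) genes tested in 4 comparisons; filled points have an adjusted p under 0.05, black lines are medians, and grey boxes span the middle 50% of all 22981 features. The mitochondrial genes sit above the cytosolic ones in both stimulation comparisons, with medians of 0.75 and 0.24 in controls, and both families lie mostly below 0 in the knockout comparisons.

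These stimulation differences moved with the scaling of the arrays. The mitochondrial minus the cytosolic median was 0.55 in controls and 0.39 in knockouts with quantile normalization, beside the 0.51 and 0.34 above. With quantile normalization the mitochondrial medians were 0.45 in controls and 0.36 in knockouts, and with the percentile taken over spots detected on every array they were 0.37 and 0.25. The cytosolic medians turned to -0.10 and -0.03, and to -0.14 and -0.09, under the same settings. The cytosolic calls in controls then split into 3 higher and 2 lower, and into 2 higher and 1 lower; in knockouts they split into 2 higher and 1 lower, and into 1 and 1. The detected-spot percentile moves all features together, to a median of -0.34 in controls and -0.23 in knockouts. Measured from the median of all features, the mitochondrial median stood at 0.71 in controls and the cytosolic one at 0.20, and in knockouts at 0.48 and 0.14. With quantile normalization those 4 values were 0.60, 0.05, 0.36 and -0.03. The count of mitochondrial calls moved more than the medians, to 9 in controls and 1 in knockouts with each array set to its median, and to 23 and 5 without the filter on dim probes. The share of all features called under each setting is not given here. These counts thus cannot tell a change in these genes from one in all features.

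Centred on each gene's mean over the 12 arrays, the median mitochondrial gene stood at -0.14, -0.16 and -0.22 in the resting controls and at 0.82, 0.30 and 0.53 in the stimulated controls. In the knockouts it stood at -0.65, -0.51 and -0.37 at rest and at 0.24, 0.11 and 0.03 after stimulation. Every stimulated array was thus above every resting array of its genotype. The median cytosolic gene stood at 0.04, -0.14 and 0.25 in resting controls and at 0.15, 0.04 and 0.75 in stimulated controls. Control groups overlapped, and the third stimulated control stood apart at 0.75. Without that array the cytosolic median difference in controls was 0.00 (-0.0019) in place of 0.24, and 3 genes were called in place of 5. How many of all features were called without it is not given here. The knockout arrays had cytosolic medians of -0.38, -0.51 and -0.11 at rest and of -0.11, 0.01 and 0.00 after stimulation, without a gap between the groups.

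**Figure D2:**
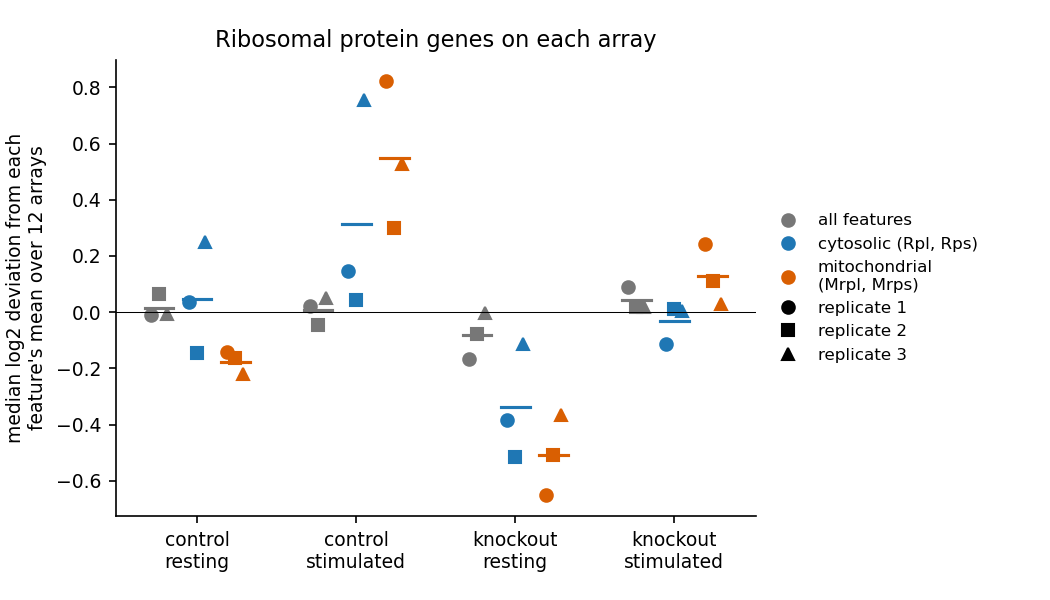
Median over genes of the log2 deviation from each gene's mean over the 12 arrays, for all features (grey), cytosolic (blue) and mitochondrial (orange) ribosomal protein genes; symbols are replicates and lines are group means. The mitochondrial points of stimulated cells lie above those of resting cells in both genotypes, and the third stimulated control is high for cytosolic genes, at 0.75.

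Within an array, the mitochondrial minus the cytosolic median does not depend on the scaling by a percentile. It was -0.18, -0.02 and -0.47 in resting controls and 0.68, 0.26 and -0.23 in stimulated controls. In knockouts it was -0.27, 0.01 and -0.26 at rest and 0.36, 0.10 and 0.03 after stimulation. Control groups overlapped through the third stimulated control, at -0.23, which lay below the resting -0.18 and -0.02. The third replicates, both on slide 2, were each the lowest of their control group. Between arrays of the same number it rose by 0.85, 0.28 and 0.24 in controls and by 0.62, 0.09 and 0.28 in knockouts. Whether the numbers pair samples is not known. On slide 1 the mitochondrial and cytosolic medians of stimulation were 0.74 and 0.11 in controls and 0.76 and 0.37 in knockouts; on slide 2 they were 0.78 and 0.49, and 0.36 and 0.04.

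The genes called in the 2 genotypes were largely the same. Of the mitochondrial genes, 32 were called in both, 66.7% of those called in controls and 97% of those called in knockouts. The group means behind the 2 differences share no arrays. Both were tested with the same variance of each gene, fitted on all arrays, so the 2 sets of calls are not independent. The overlap of calls over all features is not given here. Genes called in both include the stalk proteins Mrpl11 and Mrpl12, the exit tunnel proteins Mrpl45 and Mrpl47 and the small subunit protein Mrps15. Mrpl58, a peptidyl-tRNA hydrolase that is also part of the ribosome, is another. A further 16 were called in controls alone, among them Mrps12, the counterpart of the bacterial decoding protein S12, and Mrpl32 was called in knockouts alone. Another 28 were called in neither. Differences in control and knockout cells were positive in both for 73 of 77 mitochondrial and 68 of 77 cytosolic genes, and the control difference was the larger for 48 and 25. Of all 22981 features, 11945 were positive in controls and 13086 in knockouts, and 9959 had the larger difference in controls. How many were positive in both is not given here. Across genes, which are not independent and share arrays, the Pearson correlation of the 2 differences was 0.80 over 77 mitochondrial and 0.89 over 77 cytosolic genes. The difference between the genotypes was itself tested as an interaction, and 0 of 154 genes passed, where 0.144% of all features did; 2 mitochondrial and 0 cytosolic genes had an unadjusted p under 0.05, as did 10.6% of all features.

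**Figure D3:**
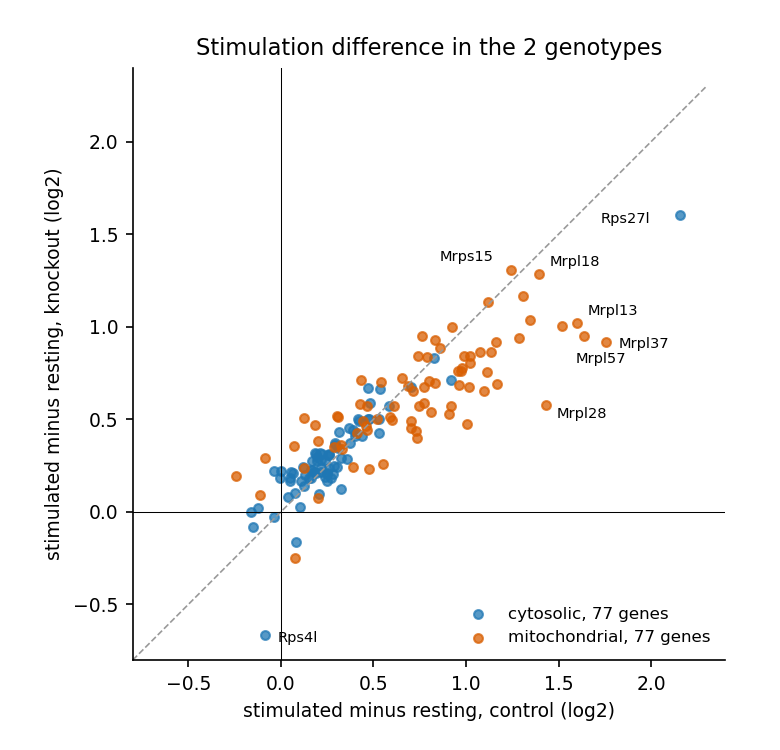
Stimulated minus resting log2 difference in control (horizontal) and knockout (vertical) cells for 77 cytosolic (blue) and 77 mitochondrial (orange) genes; the dashed line marks equal differences. Most points lie above 0 on both axes, and Mrpl37, Mrpl57 and Mrpl28 lie farthest below the line among genes of the mitochondrial ribosome.

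Among the large subunit proteins, Mrpl37, which has no bacterial counterpart, read 0.74, 0.92 and 0.64 in resting and 2.85, 2.05 and 2.66 in stimulated controls. The groups were well apart. It rose by 1.76 ± 0.27, or 3.38-fold (adjusted p = 0.000682), the largest increase of the family in controls. Mrpl57, another protein peculiar to the mitochondrial ribosome, read 4.70, 4.80 and 4.74 at rest and 6.59, 5.997 and 6.57 after stimulation. It rose 3.11-fold, by 1.64 ± 0.21 (adjusted p = 0.000201), with no overlap. Mrpl13, the counterpart of bacterial L13, read 3.75, 3.73 and 3.58 and then 5.61, 4.99 and 5.27. Its rise of 1.60 ± 0.19 was 3.03-fold (adjusted p = 0.00014). Mrpl20, the counterpart of L20, went from 4.33, 4.40 and 4.69 to 6.18, 5.58 and 6.22, a rise of 1.52 ± 0.23, or 2.86-fold (adjusted p = 0.000693). All 4 were called under each of the 28 alternative settings in which they were refitted.

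In knockout cells the largest increases were in other genes. Mrps15, the counterpart of the small subunit protein S15, read 2.20, 2.55 and 2.53 at rest and 3.90, 3.89 and 3.42 after stimulation. It rose by 1.31 ± 0.25, or 2.48-fold (adjusted p = 0.00499). Mrpl18, the counterpart of L18, read 2.86, 2.90 and 3.04 and then 4.34, 4.14 and 4.18, rising 2.44-fold (1.28 ± 0.19, adjusted p = 0.00132). Both genes were without overlap between the groups. Mrps7, an organiser of the head of the small subunit, went from 3.52, 3.72 and 3.93 to 4.91, 4.87 and 4.89 (1.16 ± 0.19, adjusted p = 0.00231). Mrpl27, whose bacterial counterpart reaches into the peptidyl transferase centre, went from 2.38, 2.72 and 2.97 to 3.82, 3.70 and 3.94 (1.13 ± 0.21, adjusted p = 0.00395). Stimulated arrays were above resting ones for both.

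The proteins of the stalk, which recruits translation factors, did not all pass. Mrpl12 read 4.06, 4.23 and 4.13 in resting and 5.51, 4.93 and 5.21 in stimulated controls, and rose by 1.08 ± 0.20 (adjusted p = 0.00203). In knockouts it went from 3.77, 3.72 and 4.06 to 4.86, 4.66 and 4.63 and rose by 0.86 ± 0.20 (adjusted p = 0.0125). Mrpl11, at the base of the stalk, rose by 0.77 ± 0.19 in controls (adjusted p = 0.0121) and by 0.68 ± 0.19 in knockouts (adjusted p = 0.0368). The call of Mrpl11 was lost under 7 of 28 alternative settings in controls and 16 in knockouts, in both with quantile normalization and in knockouts without any 1 of 9 arrays; that of Mrpl12 was lost under 1 and 6. Mrpl10, which anchors Mrpl12, differed by 0.46 ± 0.21 in controls (adjusted p = 0.137) and by 0.46 ± 0.21 in knockouts (adjusted p = 0.177). Mrps30, also named as a programmed cell death protein, differed by 0.59 ± 0.22 (adjusted p = 0.0691) and 0.51 ± 0.22 (adjusted p = 0.153). Mrpl41, which has been reported to bind BCL2, differed by 0.43 ± 0.25 (adjusted p = 0.249) and 0.58 ± 0.25 (adjusted p = 0.151).

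At the low end of the mitochondrial genes in controls stood Mrpl52 at -0.24, Mrpl24 at -0.11 and Mrpl35 at -0.09, none of them called and chosen after their values were seen. Mrpl46 and Mrps11, which share a start region, differed by 0.61 and 1.02 in controls, and the latter passed the test.

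Not every probe of a called gene agreed. Of the 20 mitochondrial genes with several probes kept, 3 that were called in controls had a second probe of the other sign. For Mrpl49 the probes gave 0.79 and -0.06, for Mrps14 1.14 and -0.27, and for Mrps25 0.75 and -0.86. The brighter probe is the one used above, and the differences fitted to it were called at adjusted p = 0.0115, 0.00142 and 0.0118. Among the 50 cytosolic genes with several probes kept, 7 had such a probe in controls, 0 of them called. Dimmer probes of uncalled cytosolic genes departed from the brightest in both directions. In controls they gave 1.11 beside 0.13 for Rpl13a and 1.07 beside 0.41 for Rpl14. For Rps24 they gave values down to -2.06 beside 0.33, and for Rpl22 -0.80 beside 0.39. The cytosolic median above rests on the brightest probe of each gene. Ribosomal protein genes have many processed pseudogenes, so probes for them, the cytosolic ones above all, may read near-identical copies.

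Of the cytosolic genes, the largest increase was in a paralogue. Rps27l, a copy of Rps27 known as a target of p53, read 4.41, 4.50 and 4.86 in resting and 6.84, 6.34 and 7.06 in stimulated controls. It rose by 2.16 ± 0.26, or 4.46-fold (adjusted p = 0.000155). In knockouts it went from 4.22, 4.39 and 4.98 to 6.02, 6.11 and 6.28 and rose by 1.61 ± 0.26, or 3.04-fold (adjusted p = 0.00202). Groups did not overlap in either genotype, and the call held under all 28 alternative settings in each. The interaction was -0.55 ± 0.37 (adjusted p = 0.678).

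Rps2, Rpl28 and Rpl3 also rose in both genotypes. Rps2, a small subunit protein near the mRNA entry, read 8.15, 8.02 and 8.24 in resting and 8.97, 8.78 and 9.40 in stimulated controls, a rise of 0.92 ± 0.21 (adjusted p = 0.00761). In knockouts it went from 7.55, 7.46 and 7.84 to 8.47, 8.40 and 8.10, a rise of 0.71 ± 0.21 (adjusted p = 0.0425). All stimulated arrays were above all resting ones. Rpl28 went from 7.37, 7.26 and 7.59 to 8.24, 7.98 and 8.48 in controls (0.83 ± 0.22, adjusted p = 0.0162) and from 6.71, 6.72 and 7.28 to 7.68, 7.63 and 7.90 in knockouts (0.83 ± 0.22, adjusted p = 0.0266). Rpl3, which lies by the peptidyl transferase centre, went from 8.32, 8.20 and 8.15 to 9.003, 8.72 and 9.06 in controls (0.70 ± 0.17, adjusted p = 0.0105). In knockouts it went from 7.69, 7.62 and 7.81 to 8.54, 8.37 and 8.24 (0.68 ± 0.17, adjusted p = 0.0221). The groups of both genes were apart in both genotypes. These calls depend on scaling: Rpl3 in both genotypes and Rps2 in knockouts lost theirs with quantile normalization, and Rpl28 in both with the detected-spot percentile. Of 28 alternative settings, 9 in controls and 11 in knockouts lost the call of Rpl3, 11 in each that of Rpl28, and 3 and 16 that of Rps2, in knockouts including 1 array left out for each gene. The fifth called gene differed: Rpl29 in controls, at 0.58, and Rpl22l1 in knockouts.

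**Figure D4:**
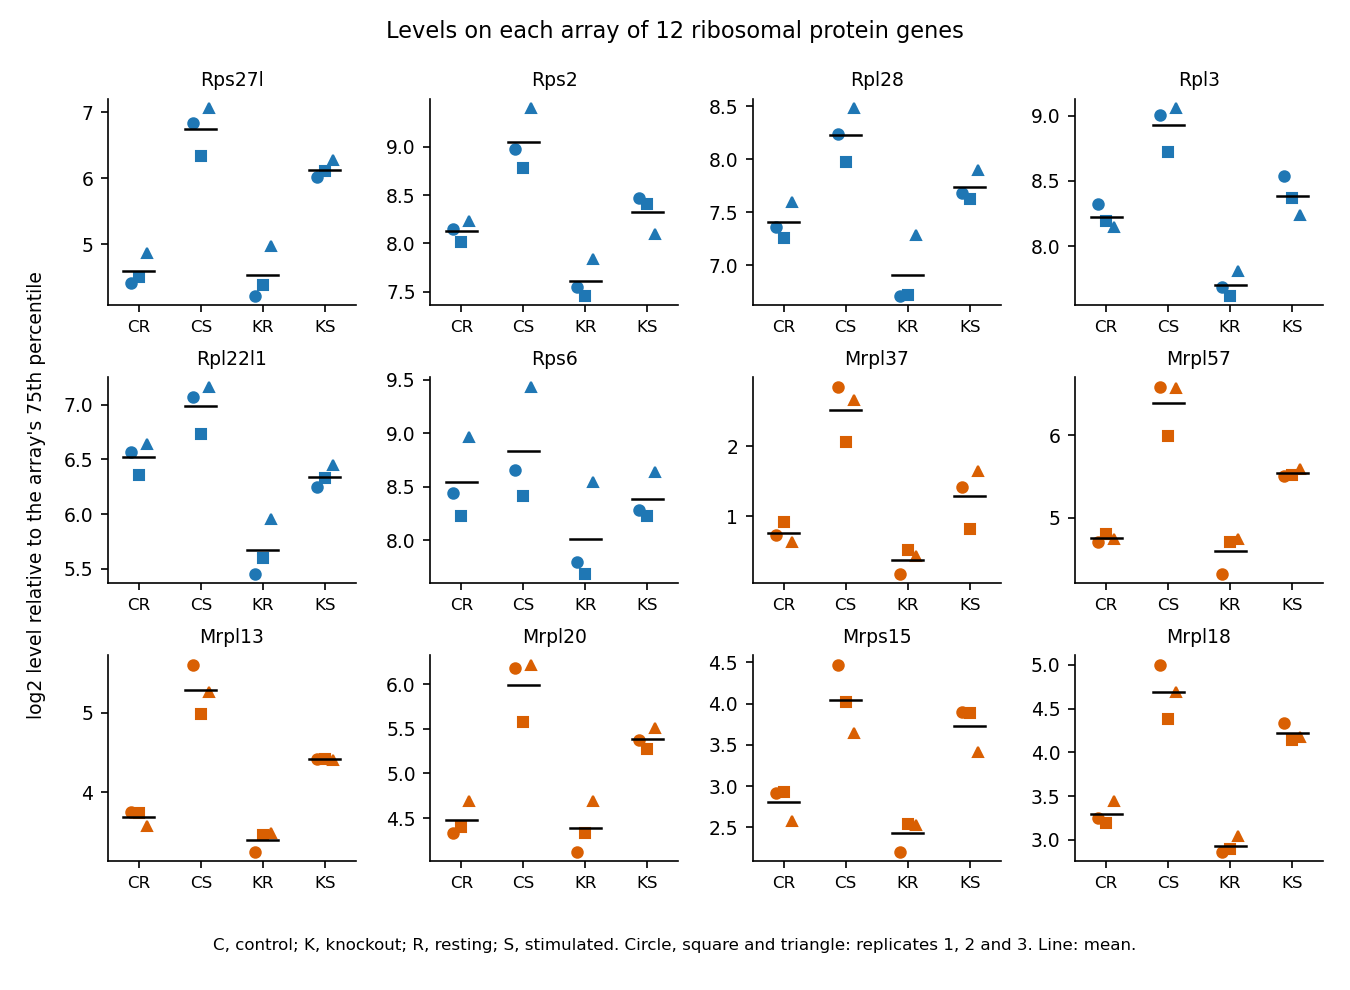
Log2 level relative to the array's 75th percentile on each of the 12 arrays for 6 cytosolic (blue) and 6 mitochondrial (orange) genes, with group means as lines; each panel has its own axis, so heights cannot be compared between genes. Stimulated arrays lie above resting ones of their genotype in every panel but that of Rps6, where groups overlap.

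Of the other paralogues, 1 passed, and in knockouts only. Rpl22l1, the paralogue of the lymphocyte protein Rpl22, read 6.57, 6.36 and 6.64 in resting and 7.07, 6.73 and 7.17 in stimulated controls, a difference of 0.47 ± 0.20 (adjusted p = 0.112). In knockouts it went from 5.45, 5.60 and 5.96 to 6.25, 6.33 and 6.45, and rose by 0.67 ± 0.20 (adjusted p = 0.0431). Stimulated arrays were the higher in both genotypes. That call was lost under 17 of 28 alternative settings, where the rise was as low as 0.20, among them quantile normalization and leaving out any 1 of 8 arrays. Rpl22, needed for T cell development, differed by 0.39 ± 0.18 (adjusted p = 0.138) and 0.45 ± 0.18 (adjusted p = 0.128). Rps4l read -0.67 ± 0.24 in knockouts (adjusted p = 0.0953) and -0.08 ± 0.24 in controls (adjusted p = 0.864), with an interaction of -0.58 ± 0.34 (adjusted p = 0.616). Rpl7l1, a nucleolar relative of Rpl7, differed by 0.54 ± 0.30 in controls (adjusted p = 0.232) and 0.66 ± 0.30 in knockouts (adjusted p = 0.18). Rpl10l, a testis paralogue, was well above background on 8 of 12 arrays, at levels between -4.05 and -0.04, and differed by 0.10 ± 0.73 (adjusted p = 0.948) and 0.03 ± 0.73 (adjusted p = 0.99).

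Cytosolic proteins with known roles outside the ribosome were among those not called. Rpl5 and Rpl11, which with the 5S RNA bind MDM2, differed in controls by 0.31 ± 0.16 (adjusted p = 0.201) and 0.40 ± 0.22 (adjusted p = 0.221), and in knockouts by 0.43 ± 0.16 (adjusted p = 0.108) and 0.42 ± 0.22 (adjusted p = 0.252). Rps6, the substrate of S6 kinase, read 8.45, 8.23 and 8.96 in resting and 8.66, 8.42 and 9.44 in stimulated controls, a difference of 0.29 ± 0.33 (adjusted p = 0.599). Its replicate 3 was the highest in each group. In knockouts it differed by 0.37 ± 0.33 (adjusted p = 0.557). Rps3, an endonuclease and partner of NF-kB, ranged from 6.05 to 8.13 over the 12 arrays, with a difference of -0.16 ± 0.59 in controls (adjusted p = 0.897) and of 0.00 ± 0.59 in knockouts (-0.0013, adjusted p = 0.999).

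Of the remaining genes fixed by role, Rpl23, which also binds MDM2, Rps27a, made as a fusion with ubiquitin, Rps19, mutated in Diamond-Blackfan anaemia, and Rpl13a, of an interferon-activated translation inhibitor, gave differences between 0.12 and 0.37 in controls. None was called. In knockouts their differences lay between 0.20 and 0.37, again without a call. For Rpl23, Rps19 and Rpl13a the sign in both genotypes turned with quantile normalization, so no direction is given.

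Genes outside the symbol rule that serve the same ribosomes were counted beside them. Of the 8 cytosolic ribosomal proteins with other names, 1 rose in controls, Rpl36al (0.93 ± 0.28, adjusted p = 0.0283), and 0 in knockouts. Of the 5 such proteins of the mitochondrial ribosome tested, 4 rose in each genotype, with medians of 0.81 and 0.69. Of all features, 14.7% were called higher in controls and 10.9% in knockouts. Chchd1 rose by 0.91 ± 0.20 (adjusted p = 0.00644) and 0.80 ± 0.20 (adjusted p = 0.0209), and Aurkaip1 by 0.81 ± 0.20 (adjusted p = 0.013) and 0.69 ± 0.20 (adjusted p = 0.0432). The call of Aurkaip1 was lost under 9 of 28 alternative settings in controls and 16 in knockouts, with values down to 0.29 and 0.22, and that of Chchd1 under 6 and 10. Gadd45gip1 rose by 1.14 ± 0.19 in controls (adjusted p = 0.00122), and Dap3, which binds GTP, by 0.77 ± 0.20 in knockouts (adjusted p = 0.0257). The call of Dap3 was lost under 11 settings and that of Rpl36al under 12.

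Of the soluble factors of mitochondrial translation 10 were tested, and in controls 1 rose and 0 fell, with a median of -0.05. Of all features, 14.7% were called higher and 13.1% lower there. The gene that rose was the elongation factor Tsfm (0.94 ± 0.26, adjusted p = 0.0201). In knockouts 0 of 10 were called, where 10.9% of all features were called higher and 5.2% lower. The elongation factor Gfm1 had the smallest p there (0.67 ± 0.26, adjusted p = 0.113). Of 12 tested assembly factors, the rRNA methyltransferase Tfb1m rose in both genotypes (0.75 ± 0.20, adjusted p = 0.0176, and 0.78 ± 0.20, adjusted p = 0.0236). Its calls were lost under 9 and 10 of 28 settings and that of Tsfm under 9, each including the loss of single arrays. Another methyltransferase, Mrm1, fell by 0.73 in controls (adjusted p = 0.00922), where 13.1% of all features were called lower. The medians of that list were 0.04 and 0.20.

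Of 16 cytosolic translation factors whose messages are of the TOP class, 9 rose and 1 fell in controls, where 14.7% of all features were called higher and 13.1% lower. In knockouts 9 rose, where 10.9% of all features were called higher, and the median was 0.58 in each genotype. Eif4b, a helper of the cap helicase, rose by 1.19 ± 0.19 (adjusted p = 0.000883) and 1.11 ± 0.19 (adjusted p = 0.00272). Npm1, a nucleolar chaperone, rose by 0.95 ± 0.19 (adjusted p = 0.00336) and 1.00 ± 0.19 (0.9965, adjusted p = 0.00481). Pabpc1, the poly(A)-binding protein, rose in knockouts by 0.76 ± 0.20 (adjusted p = 0.0262), a call lost under 11 of 28 settings. Eif4a2, an isoform of that helicase, fell by 1.26 in controls (adjusted p = 0.00189).

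Of 12 genes tested that control ribosomal protein genes or their messages, 2 rose in controls and 1 in knockouts. Of all features, 14.7% were called higher in controls and 10.9% in knockouts, so these counts are near the general share. Eif4ebp1, the mTOR target 4E-BP1, read 2.47, 2.42 and 2.52 in resting and 4.71, 4.23 and 4.41 in stimulated controls, and rose by 1.98 ± 0.19 (adjusted p = 3.73e-05). In knockouts it went from 2.39, 2.58 and 2.62 to 3.16, 3.02 and 2.74, a difference of 0.44 ± 0.19 (adjusted p = 0.16). In stimulated cells it was lower in knockouts by 1.48 ± 0.19 (adjusted p = 0.00528), the 1 gene of this list called between genotypes, with no overlap of the groups; this call was lost under 4 of 28 alternative settings. Its interaction was -1.54 ± 0.27 (adjusted p = 0.0648). Larp1, which binds TOP messages, rose by 1.10 ± 0.18 (adjusted p = 0.00127) and by 0.90 ± 0.18 in knockouts (adjusted p = 0.00771). The transcription factor Yy1 read -0.58 ± 0.19 in resting knockouts against controls (adjusted p = 0.215).

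Between genotypes few genes of either family passed. In stimulated cells 4 mitochondrial genes were lower in knockouts and 0 higher, where 2.26% of all features were called lower and 1.21% higher, and 0 cytosolic genes were called; 34 and 18 had an unadjusted p under 0.05, as did 22.1% of all features. The medians were -0.44 and -0.37 beside -0.02 for all features. The groups were apart, with knockouts the lower, for 40 mitochondrial and 28 cytosolic genes, where 14% of all features were. With the replicate number as a block, 7 mitochondrial genes and 1 cytosolic gene were lower, the 4 among them. In that fit 8.1% of all features were called in either direction. The additional genes were Mrpl57, Mrps28, Mrps34 and Rpl22l1.

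Mrpl37 read 1.41, 0.82 and 1.65 in stimulated knockouts, below every stimulated control, and was lower by 1.23 ± 0.27, or 2.34-fold (adjusted p = 0.0345). Mrpl28, the counterpart of L28, read 3.40, 2.99 and 3.28 in stimulated controls and 2.43, 2.18 and 1.92 in stimulated knockouts, lower by 1.05 ± 0.19, or 2.07-fold (adjusted p = 0.0194). Mrpl13 read 4.42, 4.42 and 4.40 in stimulated knockouts and was lower by 0.87 ± 0.19 (adjusted p = 0.0344). Mrps18b, a relative of bacterial S18, read 5.31, 4.76 and 5.13 in controls and 4.17, 4.31 and 4.21 in knockouts, lower by 0.83 ± 0.20 (adjusted p = 0.0464). The groups of all 4 were apart. Each of these calls was lost under several of 28 alternative settings, 16 for Mrpl37, 8 for Mrpl28, 18 for Mrpl13 and 21 for Mrps18b, among them the fit of these groups alone, which called 0. Without the second or the third stimulated knockout or the first stimulated control 0 mitochondrial genes were called, and without the second stimulated control 12. Leaving out any 1 of 7 other arrays left 1, and leaving out the first resting knockout left 3. The share of all features called in these fits is not given here. These counts thus cannot tell a change in these genes from one in all features.

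In these cells the genotype difference of a gene and its stimulation difference share the stimulated controls. At rest Mrpl28 read 1.86, 1.73 and 1.78 in resting controls and 1.55, 1.50 and 1.75 in resting knockouts. Its interaction was -0.86 ± 0.27 (adjusted p = 0.265), and that of Mrpl57 -0.69 ± 0.29 (adjusted p = 0.436). Of the cytosolic genes in stimulated cells, Rps2 (-0.73 ± 0.21, adjusted p = 0.0922) and Rpl22l1 (-0.65 ± 0.20, adjusted p = 0.104) had the smallest p.

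In resting cells 0 genes of either family were called, where 0.0131% of all features were; 7 mitochondrial and 24 cytosolic genes had an unadjusted p under 0.05, as did 19.7% of all features. The differences were nearly all negative, for 77 of 77 mitochondrial and 74 of 77 cytosolic genes. Negative differences were also the more common over all features, at 14285 of 22981, and over named genes, at 8687 of 12295. The medians were -0.32 and -0.40 beside -0.21 for all features. Knockout arrays were below all control arrays for 43 and 36 genes, where 26.7% of all features were. Rpl22l1, at 6.57, 6.36 and 6.64 in controls and 5.45, 5.60 and 5.96 in knockouts, had the smallest p (-0.85 ± 0.20, adjusted p = 0.161). Rpl36a differed by -0.54 ± 0.16 (adjusted p = 0.2), Mrps26 by -0.49 ± 0.18 (adjusted p = 0.226) and Mrpl30 by -0.49 ± 0.19 (adjusted p = 0.233).

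The shift of both families between genotypes depended on the scaling. With quantile normalization the cytosolic and mitochondrial medians were -0.03 and -0.01 in resting and 0.06 and -0.06 in stimulated cells. With the percentile over detected spots they were -0.04 and 0.03, and 0.03 and -0.04, while all features stood at 0.15 and 0.38. With each array set to its median they were -1.005 and -0.93, and -0.93 and -0.99, with all features at -0.81 and -0.58. Measured from the median of all features they were -0.19 and -0.11 at rest and -0.35 and -0.42 after stimulation in the main setting. With quantile normalization these distances were 0.01 and 0.03 at rest and -0.04 and -0.15 after stimulation. With normexp they were -0.25 and -0.13 at rest and -0.18 and -0.24 after stimulation. In stimulated cells the slides differed, with cytosolic medians of -0.14 on slide 1 and -0.78 on slide 2, and mitochondrial ones of -0.37 and -0.49. Without the third stimulated control the cytosolic median was -0.14.

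**Figure D5:**
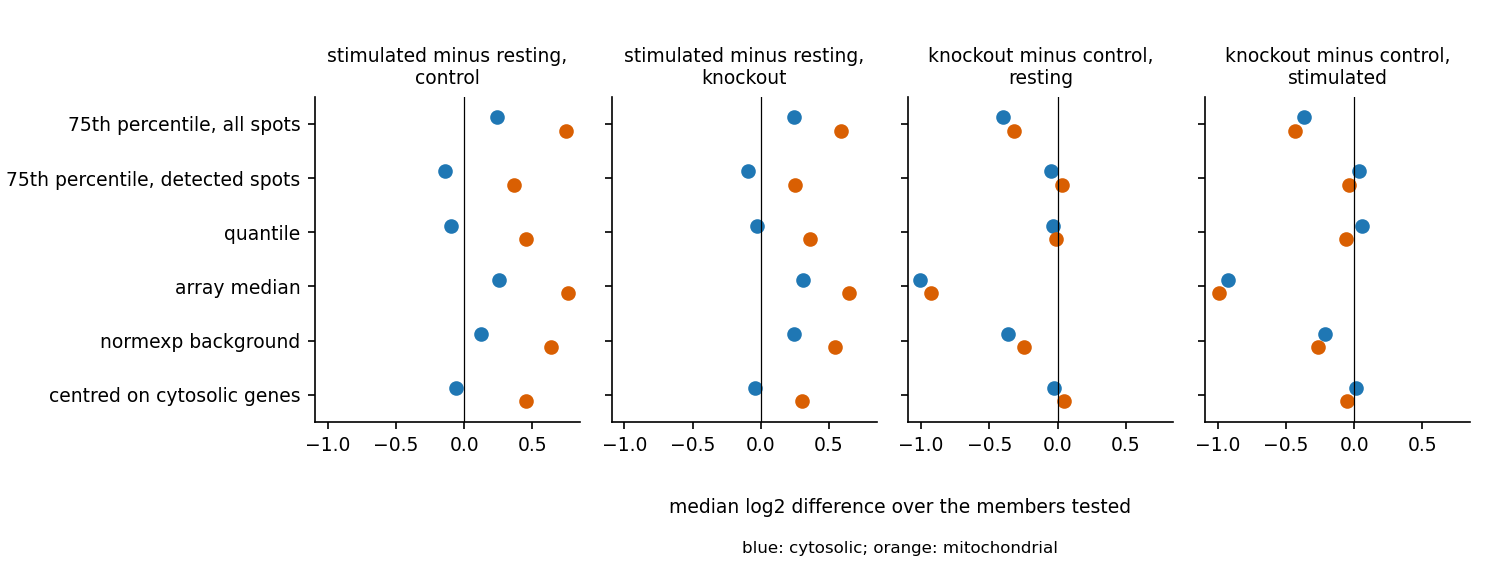
Median log2 difference of the cytosolic (blue) and mitochondrial (orange) genes tested, in 4 comparisons (panels) under 6 settings of scaling or background correction (rows). In the row centred on cytosolic genes the cytosolic medians are near 0 by construction. The mitochondrial medians of stimulation stay above 0 in every row, between 0.37 and 0.76 in controls; the cytosolic ones change sign between rows, as do the mitochondrial knockout median at rest and the cytosolic one after stimulation.

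Markers of other cell types moved with genotype and stimulation. In stimulated cells 5 of 11 tested myeloid markers were higher in knockouts, with a median difference of 2.297, where 1.21% of all features were called higher. So were 3 of 6 NK cell markers, with a median of 1.86, and 2 of 6 erythroid markers, with a median of 1.07. The summed myeloid level was between 3.71 and 4.85 in stimulated controls and between 5.33 and 5.59 in stimulated knockouts, and the NK level between 5.13 and 5.19 and between 7.77 and 8.72. At rest the myeloid level was between 5.88 and 6.50 in controls and between 6.83 and 7.35 in knockouts, and the erythroid level between 4.44 and 8.29 and between 7.91 and 9.60. Among the markers not tested were the myeloid Fcgr1 and Ly6c2, the NK cell Klrd1 and Klrk1 and the erythroid Hbb-b1. Of 7 T cell markers, 1 was higher in stimulated knockouts, and of 4 platelet markers 0 were called between genotypes.

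With stimulation, 5 of 6 plasma cell markers rose in controls (median 2.66), in knockouts 3 rose and 1 fell (median 0.84), and in stimulated knockouts 5 of 6 were lower than in controls (median -1.51). Of 8 B cell markers, 7 fell in controls with stimulation (median -0.98) and 1 in knockouts (median -0.46). Myeloid markers fell for 7 of 11 in controls (median -2.10) and 6 of 11 in knockouts (median -1.72). NK cell markers rose for 2 of 6 in controls (median 1.08) and 3 of 6 in knockouts (median 1.79). Erythroid markers fell for 3 of 6 in controls and 5 of 6 in knockouts, and platelet markers for 3 of 4 in each. Of all features, 14.7% were called higher and 13.1% lower in controls, and 10.9% and 5.2% in knockouts. Their part in the ribosomal protein differences was not tested. In such bulk samples fewer cells of a type and less RNA per cell cannot be told apart.

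The sequence features of the start regions were set beside the changes as a description. In controls, the median stimulation difference was 0.72 for the 38 tested mitochondrial genes with CCGGAA in the window, 21 of them called, and 0.78 for the 30 without, 21 of them called. For the NRF-1 half-site it was 0.66 in 21 genes with and 0.79 in 47 without. Among cytosolic genes the 11 with a pyrimidine run at the annotated start had a median of 0.26, with 1 called (Rpl28), and the 46 without had 0.24, with 2 called.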

How the data were processed

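RNA of 12 samples was hybridised to 1-colour Agilent arrays. The deposited scanner intensity of each spot (gProcessedSignal, background-corrected per the file headers) came from Agilent Feature Extraction, version 10.7.3.1 per the file headers and 9.1 per the submitters' processing notes. Deposited flags for outlier, control and well-above-background spots, which are neither counts nor scores, were used as filters. The deposited values matrix was an alternative. The array's own annotation is on mm9, and no coordinate of it is used.

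Each array's log2 intensity was scaled by the 75th percentile of its spots, controls and outliers left out, and repeated spots were averaged. Probes well above background in at least 1 group were kept, and a gene's brightest probe was used, giving 22981 features, 12295 of them named genes. Group means were fitted with limma 3.58.1 (lmFit, eBayes) in R 4.3.3 on all 12 arrays, with Benjamini-Hochberg adjustment over all features and a threshold of 0.05. Folds are ratios computed from log2 differences. The number of arrays limits the precision. Motifs were counted in 1 RefSeq window per gene.

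Same-numbered samples deviated together between the stimulated groups (correlations 0.35, 0.33 and 0.48) and between the control groups (0.42, 0.43 and 0.51). Samples of different numbers were not compared, and replicate 3 was on another slide in every group. Whether these correlations reflect a pairing by number or a slide effect was thus not tested. The correlations were lower between the resting genotypes (-0.12, 0.20 and 0.39) and between the knockout groups (0.00, 0.15 and 0.39). The labels give only the numbers.

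Named genes were Sub1, Cd79a, up to 4 called genes of each family per comparison with the largest increase and 4 with the largest decrease (or the 2 with the smallest p), the paralogues, a list of genes with known roles, the leading genes of each translation list, and called genes with a probe of the other sign. The members and lists were chosen with earlier results of these data known. The fit was tested on simulated data: with 200 of 22652 features changed between the stimulated groups, 52% of those changed by 2 on the log2 scale and 10% of those changed by 1 were recovered.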

Additional observations from a re-analysis of the deposited data

How the results depend on the processing

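Values are given for the main setting first and then for each alternative that moved them. Apart from the replicate block, counts of calls are given without the share of all features called under the same setting. They therefore cannot tell a change in these genes from one in all features. The cause of each move was not tested, beyond what a setting itself changes (fewer arrays or other probes). The alternatives of refitting slide 1 alone and of centring each array on the cytosolic genes were chosen after seeing the data. Of the family medians under an alternative, 423 moved by less than the spread between replicates and 39 by more, and of the counts 209 stayed within 1.5 times and 79 did not. Arrays with few spots above background (24.3% on the lowest) limit the dim genes, such as Rpl10l.

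Mitochondrial genes called with stimulation in controls numbered 48, and 9 with median scaling, 23 without the filter on dim probes, 27 with only the groups compared, 25 with both first control arrays left out, 16 on slide 1 alone and 16 centred on cytosolic genes, and 37 to 56 with 1 array left out. In knockouts they numbered 33, and 1, 5 and 19 with the first 3 of these settings, 3 on slide 1, 3 when centred, and 11 to 43 with 1 array left out. Cytosolic calls in controls numbered 5, and 1 with median scaling, 3 with the detected-spot percentile, 3 with normexp, 1 without the filter, 10 with probes detected on all arrays, 16 with every probe alone, 8 with array weights, 2 with only the groups compared, 2 without the first controls, 1 on slide 1, 2 when centred, and 3 to 7 with 1 array left out. In knockouts they numbered 5, and 3 with quantile normalization, 1 with median scaling, 2 with the detected-spot percentile, 3 with normexp, 1 without the filter, 12 with probes detected on all arrays, 8 with probe means, 13 with every probe alone, 11 with array weights, 8 with the slide block, 1 with only the groups compared, 3 without the first controls, 1 on slide 1, 1 when centred, and 1 to 7 with 1 array left out.

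With the replicate block, mitochondrial genes called between genotypes after stimulation numbered 7 in place of 4, and cytosolic ones 1 in place of 0. Of all features, 8.1% were called there. The block changed no other count by over 1.5 times (52 and 7 with stimulation in controls, 40 and 7 in knockouts). With stimulation 32.7% of all features were called under the block in controls and 20.4% in knockouts. The 4 became 1 with quantile normalization, 2 with median scaling, 2 with normexp, 16 with probes detected on all arrays, 12 with trended robust eBayes, 0 to 12 with 1 array left out, and 0 without the filter, with only the groups compared, without the first controls, on slide 1 and when centred. The 0 cytosolic calls became 5 with probes detected on all arrays, 2 with trended robust eBayes, 1 with the slide block and 0 to 1 with 1 array left out. At rest 1 cytosolic gene was called with trended robust eBayes and 1 with array weights.

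The genotype medians at rest, -0.40 cytosolic and -0.32 mitochondrial, became -0.033 and -0.0086 with quantile normalization, -1.005 and -0.93 with median scaling, -0.045 and 0.034 with the detected-spot percentile, and -0.027 and 0.051 when centred. On slide 2 the mitochondrial one was -0.15. After stimulation, -0.37 and -0.44 became 0.057 and -0.060, -0.93 and -0.99, 0.033 and -0.037, and 0.016 and -0.053 in that order, the mitochondrial one -0.27 with normexp and the cytosolic one -0.78 on slide 2. There the mitochondrial minus cytosolic median was 0.29 in place of -0.069, and the interaction medians were -0.39 (cytosolic) and -0.29 (mitochondrial) in place of 0.038 and -0.11. The stimulation medians in controls, 0.24 and 0.75, became -0.10 and 0.45 with quantile normalization, -0.14 and 0.37 with the detected-spot percentile and -0.056 and 0.45 when centred, and the cytosolic one was 0.49 on slide 2 and -0.0019 to 0.37 with 1 array left out. In knockouts, 0.25 and 0.59 became -0.028 and 0.36, -0.090 and 0.25, and -0.040 and 0.30, and the mitochondrial one was 0.76 on slide 1, within it or refitted, and 0.36 on slide 2.

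Signs of single genes that were not called turned near 0. With stimulation in controls, quantile normalization, the detected-spot percentile and centring gave -0.16, -0.21 and -0.13 for Rpl23, -0.049, -0.087 and -0.0022 for Rps6, -0.25, -0.26 and -0.18 for Rps19, -0.28, -0.25 and -0.17 for Rpl13a, and -0.66, -0.28 and -0.19 for Rpl10l. The first 2 gave -0.089 and -0.069 for Rpl5, the first -0.0071 for Rpl22l1 and the second -0.0067 for Rps27a. Rps19 was at -0.0059 with normexp, Rpl13a at -0.0098 on slide 1, and Rpl10l at -0.058 with array weights and -0.70 without the first controls. Probe means gave 0.16 for Rps3, -0.20 for Rpl22 and -0.33 for Mrpl41, and -0.056 for Mrps25, which was called, and Rps3 was at 0.22 with array weights and 0.24 without the first controls. In knockouts the same 3 settings gave -0.059, -0.11 and -0.059 for Rpl23, -0.085, -0.10 and -0.044 for Rps19, and -0.13, -0.14 and -0.088 for Rpl13a. Rpl10l there was at -0.31 with the detected-spot percentile, -0.18 with normexp, -0.41 with array weights, -0.19 on slide 1 and -0.26 when centred. Rps3 there was at 0.058 with median scaling, 0.0051 with normexp, 0.0014 with the deposited matrix, 0.28 with probe means and 0.10 with array weights. Probe means turned Gadd45gip1 after stimulation to 0.082 and the interactions of Gadd45gip1 and Sub1 to 0.070 and 0.066, and without the filter that of Mrrf was 0.25. With 1 array left out, controls ranged from -0.80 to 0.69 for Rpl10l, -0.30 to 0.42 for Rpl13a, -0.14 to 0.38 for Rpl23, -0.016 to 0.24 for Rps19, -0.73 to 0.19 for Rps3, -0.23 to 0.078 for Rps4l and -0.0051 to 0.50 for Rps6. Knockouts ranged from -0.31 to 0.63 for Rpl10l, -0.0073 to 0.43 for Rpl13a and -0.39 to 0.38 for Rps3.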
